A study of Harpegnathos saltator with 27 samples.

Results

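The 235 genes described here set a pair of brain libraries of the ant Harpegnathos saltator apart from the other 7 brain libraries. The pair consists of replicate 3 of the solvent-injected brains (EtOH) and replicate 1 of the methoprene-injected brains (JHA). Of the 235 genes, 223 were lower in both libraries of the pair than in all 7 others, and 12 were higher. They were chosen from 20659 gene identifiers, of which 10490 reached 5 CPM (counts scaled by the library's total on genes) in at least 1 brain library and could have been chosen. Of the 223 lower genes, 136 (61.0%) were at least 4-fold higher in brain than in each of the 2 other tissues, against 16.2% of the 10490 genes; on TMM library sizes the shares were 49.8% and 13.3%. None of the 12 higher genes was enriched in brain by this measure, which leaves the pair out of the brain mean.

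Harpegnathos saltator is a ponerine ant in which adult workers can take up reproduction after the queen is lost. Juvenile hormone and ecdysteroids are the main developmental hormones of insects, and in adults they act on the fat body and the ovary, where yolk protein synthesis and egg growth take place. The fat body stores nutrients and secretes blood proteins, as liver and fat do in vertebrates. The brain expresses many genes of neurons and glia at levels not reached elsewhere, so RNA of a brain sample can be set against genes enriched in other tissues.

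Workers were injected into the abdomen with a dose of 500 ng of either 20E (20-hydroxyecdysone, the molting hormone) or JHA (methoprene, a stable analog of juvenile hormone) in buffered salt solution, or with about 1 µL of 10% ethanol in the same solution (EtOH). Brain without its visual part, abdominal fat body (Fb) and ovary (OV) were taken 12 hours later, and polyadenylated RNA was sequenced. Tissue and treatment gave 9 groups of 3 libraries. Per the series' design, each treatment's tissues came from 3 individuals; the labels do not state the age of the workers. The count table gives no gene names, and 0 of its identifiers were found in an annotation of 14329 genes of the species, so no function can be attached to any gene below, and the tissue labels could not be set against named marker genes. Gene counts per brain library were 10.1 and 11.2 M (mega) in the pair and 8.74 to 13.4 M in the other 7.

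A gene was a member when both CPM values of the pair, each with 0.5 added, were at least 1.5 times the highest of the other 7 brain libraries, or at most 0.667 times the lowest. The comparison of the pair with the other 7 brain libraries thus chose the genes, and its values are given as a description without a test. At the boundary, the lower gene HSALG021538.1 was just inside with 25.8 and 27.2 CPM in the pair and a lowest value of 41.1 CPM elsewhere. HSALG012656.2 was just outside with 20.1 and 18 CPM in the pair and 30.4 CPM as the lowest value elsewhere. Among higher genes HSALG006482.2 was just inside and HSALG008008.1, with 8.18 and 7.33 CPM in the pair and at most 4.81 CPM elsewhere, was just outside.

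The typical lower gene stood well below the level of the other brains. The ratio of the mean of the 7 other libraries to the mean of the pair had a median of 2.15 over the 223 lower genes and ran between 1.61 and 6.50. It was at least 2-fold for 147 of them (65.9%) and at least 4-fold for 1. In the 7 other brains the mean level of a lower gene ranged between 3.56 and 926 CPM with a median of 52.6 CPM. Averaged over all 9 brain libraries, the pair included, 71 of the lower genes reached 100 CPM. The set therefore spans weakly and strongly expressed genes. The lowest raw count of a lower gene in the pair was 11, and 33 lower genes had a value under 50 counts in the pair.

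The 2 lower genes with the highest brain levels were both enriched in brain. HSALG001067.2 had 515 CPM in EtOH replicate 3 and 526 CPM in JHA replicate 1, against 843 and 1043 CPM in EtOH replicates 1 and 2, 897, 1155 and 868 CPM in the 20E libraries, and 816 and 865 CPM in JHA replicates 2 and 3. HSALG006337.2 had 451 and 472 CPM in the pair, against 729 to 1015 CPM in 6 of the other libraries and 1079.9 CPM in EtOH replicate 2. For both genes the 2 values of the pair differed by less than the spread of the other 7. In fat body these genes averaged 1.33 and 2.62 CPM, and in ovary 5.40 and 8.05 CPM.

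The widest gap among brain-enriched genes belonged to HSALG030142.1, which had 1.87 and 1.43 CPM in the pair, against 4.92 and 6.79 CPM in the other EtOH brains, 9.63, 10.6 and 4.64 CPM in the 20E brains, and 8.30 and 8.59 CPM in the other JHA brains. Its mean in the other 7 was 3.78 times that of the pair, and it averaged 0.0723 CPM in fat body and 0.537 CPM in ovary. It was a weakly expressed gene, with 19 and 16 counts in the pair and 53 to 111 counts in the others.

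HSALG023283.1 had the largest ratio of all members, 6.50-fold lower in the pair, and its values followed treatment as well. It stood at 1.58 and 1.97 CPM in the pair. In the 20E brains it stood at 25.0, 28.3 and 28.5 CPM, and in the other EtOH and JHA brains at 3.44 to 6.0 CPM. The 20E brains did not overlap with any other brain library, and without them the gap between the pair and the other brains is narrower. The gene was also found in ovary, at 8.70 CPM on average, and JHA-OV replicate 1 had 1.27 CPM where the other 8 ovary libraries had 6.34 to 14.7 CPM.

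The 12 higher genes were fewer, and some of them varied widely among the other brains. Their median ratio of the pair to the other 7 was 2.46, with a range of 1.70 to 4.06, and 8 were at least 2-fold. HSALG006482.2, the member with one of the highest brain levels in this direction, had 127 and 122 CPM in the pair, against 61.7 to 80.9 CPM in the other 7. It was enriched in fat body, with a mean of 430.4 CPM there and 73.7 CPM in ovary. In ovary JHA replicate 1 again stood apart, at 130.2 CPM against 60.9 to 72.9 CPM in the other 8 libraries.

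HSALG004843.1 had 138 and 116 CPM in the pair, and in the other 7 its level spread between 15.9 CPM in JHA replicate 3 and 76.5 CPM in EtOH replicate 1. A similar order of libraries appeared in HSALG009077.2, an ovary-enriched gene with 69.1 and 55.3 CPM in the pair, 33.2 and 32.6 CPM in EtOH replicate 1 and 20E replicate 3, and 5.55 and 2.29 CPM in 20E replicate 1 and JHA replicate 3. HSALG002538.2, chosen after its values were seen, had 59.3 and 62.8 CPM in the pair, 29.7 and 35.9 CPM in EtOH replicate 1 and 20E replicate 3, and 4.42 and 3.66 CPM in 20E replicate 1 and JHA replicate 3. All 3 genes thus varied severalfold among the 7 other brains too. HSALG009077.2 averaged 110.2 CPM in ovary and HSALG002538.2 averaged 72.9 CPM there.

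HSALG014958.2 had the largest ratio among the higher genes, 4.06, but it rested on 1 library. It had 4.34 CPM in EtOH replicate 3 and 14.5 CPM in JHA replicate 1, against 1.23 to 2.33 CPM elsewhere. The log2 mean ratio was 2.02, and it ranged between 0.99 and 2.62 when 1 library at a time was left out.

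**Figure D1:**
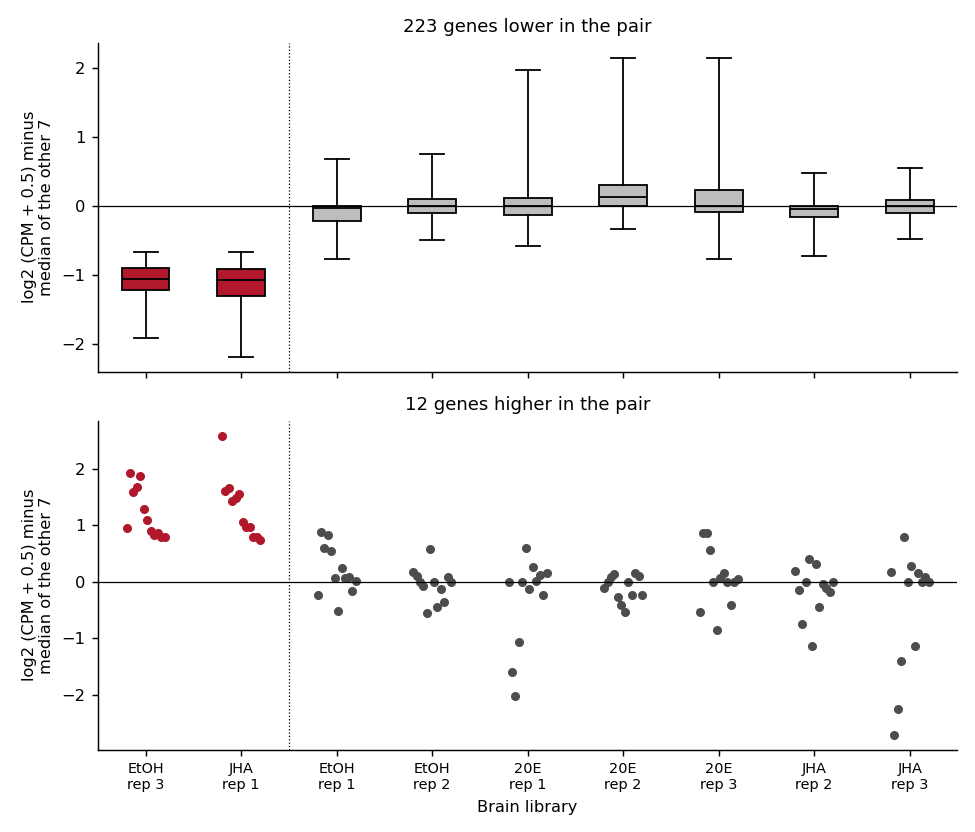
Each gene's log2 (CPM + 0.5) in the 9 brain libraries minus its median in the 7 libraries outside the pair (vertical axis, log2 units), for the 223 lower genes as boxes (median, quartiles, whiskers over the full range) and for the 12 higher genes as points. The rule chose these genes on these values: lower genes have medians of -1.06 and -1.07 in the pair (red) and -0.05 to 0.12 in the others (gray).

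The 7 other brains also differed among themselves over the lower genes. Their distance from the pair was set by the rule, so these differences are not weighed against it. The median deviation of the 223 genes was highest in 20E replicate 2, at 0.12 log2 units, and lowest in JHA replicate 2, at -0.05. 20E replicate 2 had the highest value for 74 of the lower genes and 20E replicate 3 for 40, and EtOH replicate 1 was the nearest to the pair for 68. Over the 10490 genes such shares were counted only among all 9 brain libraries. There 20E replicates 2 and 3 were highest for 8.54% and 11.4%, and EtOH replicate 1 was lowest for 4.08%. Those shares include the pair, so the counts of lower genes are not set against them. For 68 lower genes (30.5%) 20E replicates 2 and 3 were both above the remaining 5 libraries, against 15.8% of the 10490 genes. The rule used values of these 7 libraries, so the 2 shares are a description and no test.

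Each library of the pair also had low genes that the other did not share. Under the same rule applied to EtOH replicate 3 by itself against the 7 other brains, 447 genes were lower and 75 higher, and the 223 lower members made up 49.9% of those lower genes. For JHA replicate 1 by itself, 505 genes were lower and 115 higher, and the 223 made up 44.2% of the lower ones. The lower members summed to 13826 CPM in EtOH replicate 3 and 13234 CPM in JHA replicate 1, against 25936 to 31501 CPM in the other 7 brains. The median gene of the 10490 lay 0.12 and 0.14 log2 units above the median of the other 7 in the pair, so relative to it the lower genes were further down than their CPM ratio says.

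Tissue enrichment was judged from means of CPM + 0.5 at least 4 times those of each other tissue, with the pair left out of the brain mean. Of the 223 lower genes, 136 were enriched in brain, 0 in fat body, 1 in ovary and 86 (38.6%) in no single tissue. Of the 12 higher genes, 0 were enriched in brain, 2 (16.7%) in fat body, 1 (8.33%) in ovary and 9 (75%) in no single tissue. The shares of the 10490 genes were 16.2% in brain, 2.28% in fat body, 3.49% in ovary and 78% in no single tissue. The 75% of the higher genes in no single tissue was thus near the share of all genes. Leaving out the pair lowers the brain mean of higher genes. HSALG004843.1, for example, averaged 127 CPM in the pair, 43.8 CPM in the 7 other brains, 4.48 CPM in fat body and 11.2 CPM in ovary. Seen the other way round, 8.0% of the 1700 brain-enriched genes were lower members, against 1.05% of the 8185 genes enriched in no single tissue. The minimum of 5 CPM in brain and the values of the 7 other brains entered the choice of the genes, so these shares describe the set and are no test.

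The brain-enriched genes that were not members leaned the same way. The median log2 ratio of the pair to the other 7 was -0.45 over the 1564 brain-enriched genes outside the set. Of all 1700 brain-enriched genes, the 136 members included, 79.5% lay below 0. The median was 0.39 over the 239 fat body-enriched genes, of which 16.3% lay below 0. It was 0.07 over the 366 ovary-enriched genes and 0.20 over genes enriched in no single tissue. The 7 other brains entered both the tissue classes and this ratio, so these values are a description and no test. The 86 lower genes enriched in no single tissue belong to a class whose median lay above 0.

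**Figure D2:**
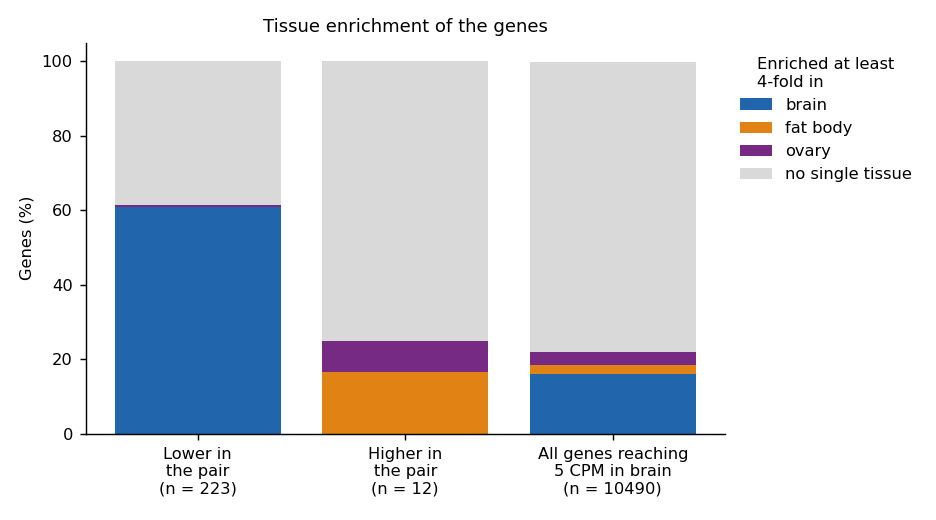
Share of genes (percent, stacked bars) enriched at least 4-fold in 1 tissue, for the 223 lower genes, the 12 higher genes and all 10490 genes that reached 5 CPM in a brain library. With the pair left out of the brain mean, brain-enriched genes make up 61.0% of the lower genes, 0% of the higher genes and 16.2% of all.

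In absolute level the lower genes were scarce outside brain. Their median was 24.8 CPM in the pair and 52.6 CPM in the other 7 brains, and 0.847 CPM in fat body and 4.99 CPM in ovary. Brain had the highest of the 3 tissue means for 207 of them (92.8%), against 48.6% of the 10490 genes. The fat body mean was under 1 CPM for 115 (51.6%, against 18.3%), and both other tissues were under 1 CPM for 54 (24.2%, against 7.48%). The higher genes had medians of 50.7 CPM in the pair, 18 CPM in the other brains, 4.61 CPM in fat body and 23.1 CPM in ovary. Fat body was highest for 5 of the 12 (41.7%), against 8.43% of the 10490 genes. Ovary was highest for another 5 (41.7%), which was near the 43% of the 10490 genes.

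Between tissues, edgeR's quasi-likelihood test with a Benjamini-Hochberg adjusted p under 0.05 was run on all genes, with the pair left out of brain. Of 13599 genes tested, 45.9% were called higher in brain than in fat body, and 190 of the 223 lower genes (85.2%) were. Higher in brain than in ovary were 196 lower genes (87.9%), against 41.5% of all genes. Among the 10490 genes the shares were 46.3% and 41.6%. The median log2 difference of the lower genes was 4.38 for brain against fat body and 3.17 for brain against ovary, and over all tested genes 0.28 and 0.07. The brain values were used in choosing the genes, so these counts are read only as levels. Of the 12 higher genes, 3 were called higher and 8 lower in brain than in fat body, where 34.7% of all genes were called lower.

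The comparison of ovary with fat body used no value that chose the genes. Of 223 lower genes, 185 passed the filter on low counts; 94 of these (50.8%) were called higher in ovary and 54 (29.2%) lower, against 42.1% and 37.3% of all genes tested. Their median log2 difference was 0.70, against 0.11 over all genes tested. All 12 higher genes were tested; 2 were called higher in ovary and 7 (58.3%) lower, with a median log2 difference of -1.47. The position of the lower genes relative to all genes depended on scaling and on the filter. Over all 223 lower genes the median was 0.31 on TMM-scaled values, against 0.14 over the 10490 genes, and 1.26 on unscaled CPM, against 1.53. The difference of the lower genes from the rest of the genes between these 2 tissues was small and changed direction with the scaling.

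Several measures of the libraries moved with the pair. Brain-enriched genes, of which the table holds 1844 by the same 4-fold rule, took 19.8% of gene counts in EtOH replicate 3 and 18.7% in JHA replicate 1, against 21.3 to 24.8% in the other 7 brains. Without the members the share was 19.0% and 17.9% in the pair, against 19.4 to 22.9%. Reads outside any gene took 50.0% and 48.5% of the table's total in the pair, against 52.2 to 54.2%. Reads that aligned to several places took 10.3% in both libraries of the pair, against 8.12 to 8.79%, and reads that fell on more than 1 gene took 0.564% and 0.599%, against 0.622 to 0.690%. All of these measures separated the pair from the other 7 without overlap, and their part in the result was not tested.

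By their summed share of gene counts, genes of the other tissues did not separate the pair without overlap. Gene by gene, fat body-enriched genes leaned higher in the pair, with a median log2 ratio of 0.39. The 346 fat body-enriched genes took 3.6% and 3.43% of gene counts in the pair, against 2.23 to 3.56% in the other brains, so JHA replicate 1 lay within their range and EtOH replicate 3 just above it. This overlap rested on 1 library, EtOH replicate 1 at 3.56%. The next highest of the 7 was 20E replicate 3, at 3.12%. The 702 ovary-enriched genes took 1.23% and 1.26% in the pair, against 1.16 to 1.31%. Depth overlapped too, as did the share of the 10 most abundant genes in JHA replicate 1, although that share was 6.35% in EtOH replicate 3, against 5.24 to 5.66% in the 7 brains outside the pair. In bulk tissue, fewer cells of a type and less RNA per cell cannot be told apart.

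**Figure D3:**
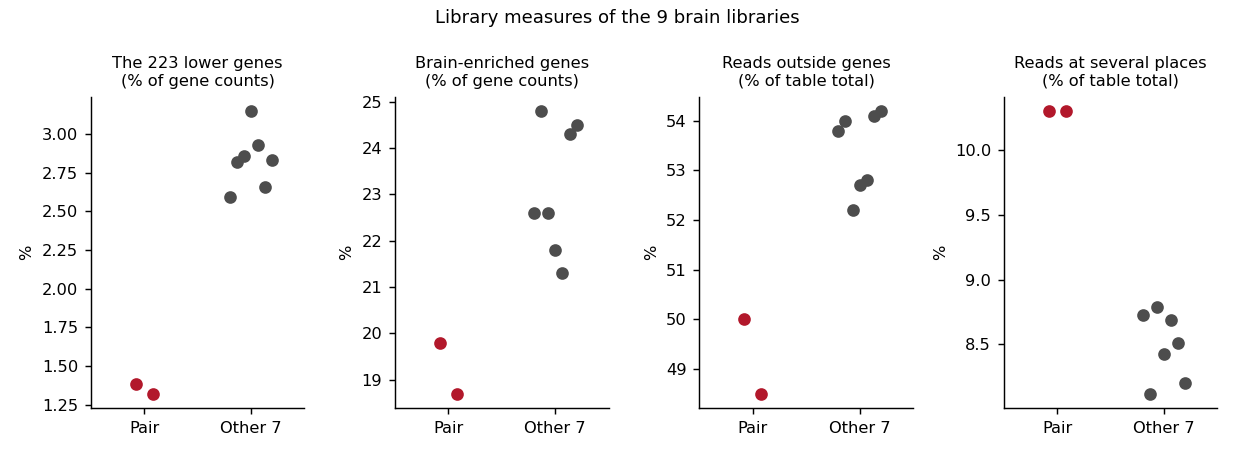
Measures of the 9 brain libraries in percent (vertical axes do not start at 0), 1 point per library, with the pair in red on the left and the other 7 in gray. In each panel the pair lies outside the range of the other 7. For the 223 lower genes, at 1.38 and 1.32% against 2.59 to 3.15%, the rule fixed this gap. The brain-enriched genes include 136 members, and the other 7 brains entered their definition. Without the members their share is 19% and 17.9% in the pair, against 19.4 to 22.9%. Reads that aligned to several places lie at 10.3% in both, against 8.12 to 8.79%.

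Hormone comparisons in brain include the libraries that chose the genes, 1 among the EtOH and 1 among the JHA libraries. For 20E against EtOH in brain, edgeR's quasi-likelihood test called 1 of the 223 lower genes, HSALG023283.1, and 0 of the 12 higher ones, where 1.87% of 12379 genes were called. Its log2 fold change was 2.77 (Benjamini-Hochberg adjusted p = 0.0179), with 25.0 to 28.5 CPM in the 3 20E brains and 1.58 to 6.0 CPM in the 3 EtOH brains. The call was lost without EtOH replicate 2, without 20E replicate 2 or without 20E replicate 3 (edgeR adjusted p = 0.0720, 0.0797 and 0.0660), and with the replicate number as a block (adjusted p = 0.0657). Without the pair, 2 lower genes were called, HSALG023283.1 and HSALG028988.1, where 3.19% of 12557 genes were called. For JHA against EtOH in brain 0 members were called, where 0% of genes were; at an unadjusted p under 0.05 there were 0 members and 398 genes, and DESeq2 called 0 members and 30 genes. Nothing is read from these brain counts, because the rule fixed which library of each group is low.

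Fat body and ovary were not used to choose the genes. In fat body 142 of the 235 members passed the filter on low counts, 130 of them lower genes. For JHA against EtOH in fat body, edgeR's quasi-likelihood test with Benjamini-Hochberg adjustment called 5 of the 142 members (3.52%), where 1.12% of 9870 genes were called, with 3 higher and 2 lower (0.476% and 0.648% of genes). The median log2 fold change of the tested members was -0.02, the same as over all genes. The 5 calls were not stable: 7 were called without EtOH-Fb replicate 1, 1 without EtOH-Fb replicate 2 or EtOH-Fb replicate 3, and 0 without any 1 of the JHA-Fb libraries.

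HSALG002460.2, one of the 2 fat body-enriched higher genes, fell most. It had 36.1, 29.9 and 29.2 CPM in the JHA fat bodies, against 527, 524 and 342 CPM in the EtOH fat bodies. The groups did not overlap, and the log2 fold change was -3.98 (SE 0.67, edgeR quasi-likelihood test, Benjamini-Hochberg adjusted p = 0.0347). Among the 20E fat bodies it had 65.8 CPM in replicate 1 and 515 and 333 CPM in replicates 2 and 3. In brain it had 56.7 and 67.8 CPM in the pair, against 10.1 to 35.0 CPM in the other 7. The call was lost in 8 of 10 alternative fits, with log2 fold changes between -4.21 and -3.82 when 1 library was left out.

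HSALG001617.2, a lower gene found in all 3 tissues, had 32.3, 30.4 and 42.7 CPM in the JHA fat bodies, against 78.9, 94.7 and 64.2 CPM in the EtOH fat bodies. The groups did not overlap, and its log2 fold change was -1.28 (SE 0.23, edgeR, adjusted p = 0.0405). In brain it had 124 and 141 CPM in the pair, against 217 to 369 CPM in the other 7.

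The 3 members that rose were lower genes enriched in no single tissue. HSALG027208.1 had 15.8, 13.4 and 18.7 CPM in the JHA fat bodies, against 7.55, 5.51 and 4.97 CPM in the EtOH fat bodies, a log2 fold change of 1.31 (SE 0.22, edgeR, adjusted p = 0.0340). HSALG027211.1 had 20.9, 16.2 and 26.1 CPM, against 9.19, 6.71 and 5.42 CPM, a log2 fold change of 1.45 (SE 0.26, edgeR, adjusted p = 0.0391). Neither overlapped between the groups, and the 20E fat bodies had 5.49 to 6.83 CPM and 6.20 to 9.05 CPM of them. HSALG007289.2, named because it completes the 3, had 88.3, 70.6 and 101 CPM in the JHA fat bodies, against 43.6, 26.3 and 24.5 CPM in the EtOH fat bodies, a log2 fold change of 1.35 (SE 0.25, edgeR, adjusted p = 0.0449). In ovary the JHA and EtOH values of HSALG027208.1 overlapped, at 17.6, 5.03 and 9.65 CPM and 9.48, 7.66 and 8.66 CPM.

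For 20E against EtOH in fat body, edgeR called 0 members, where 1.01% of genes were called; 24 members (16.9%) had an unadjusted p under 0.05, against 14.2% of genes, and DESeq2 called 8 members (5.67%), against 5.32% of genes. The member with the smallest p was HSALG023438.1, a brain-enriched lower gene. It had 5.75, 33.8 and 121 CPM in the 20E fat bodies, against 2.09, 1.41 and 3.74 CPM in the EtOH fat bodies. The groups did not overlap, yet the 20E values spread so widely that the log2 fold change of 4.37 (SE 0.96) had an edgeR adjusted p of 0.0779. DESeq2, and edgeR without 20E-Fb replicate 1, did call it.

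HSALG023438.1 showed the same order of 20E replicates in each tissue. In ovary it had 15.7, 41.2 and 132 CPM in 20E replicates 1, 2 and 3, against 2.71, 3.83 and 3.94 CPM in the EtOH ovaries (log2 fold change 4.10, SE 0.81, edgeR adjusted p = 0.548). In brain it had 137, 208 and 237 CPM in 20E replicates 1, 2 and 3, against 126, 120.3 and 62.3 CPM in EtOH replicates 1, 2 and 3. The labels do not say that equal numbers are the same ant. Replicate 1 was the lowest of the 20E libraries and replicate 3 the highest in all 3 tissues.

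**Figure D4:**
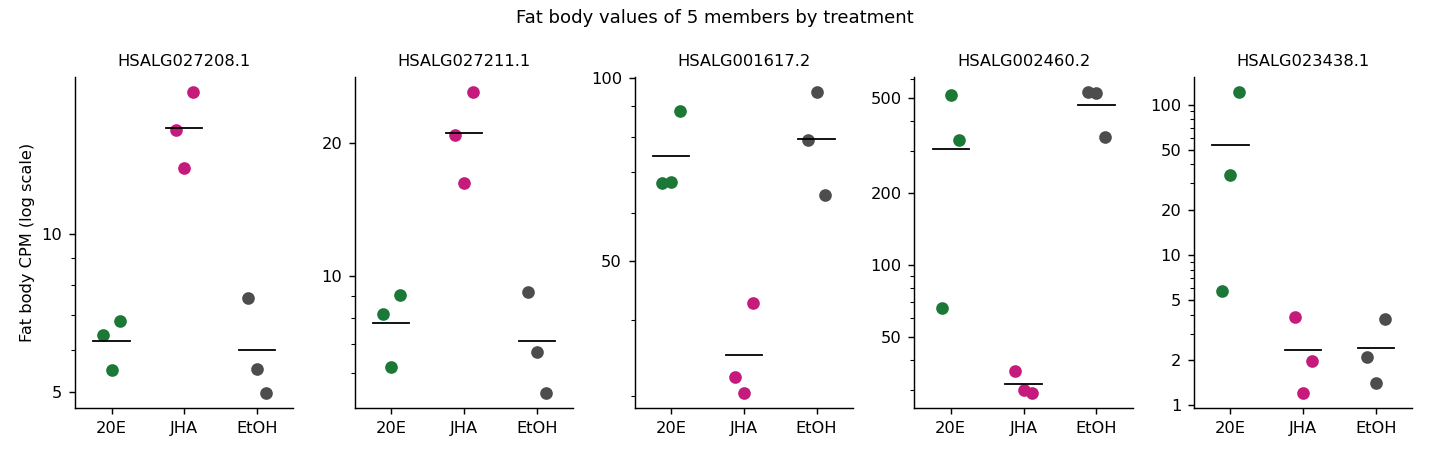
CPM in the 9 fat body libraries (vertical axis, log scale) for 5 members by treatment, 1 point per library with a line at the mean of the 3 libraries. JHA libraries lie above the EtOH libraries for HSALG027208.1 and HSALG027211.1 and below them for HSALG001617.2 and HSALG002460.2, and the 20E values of HSALG023438.1 spread between 5.75 and 121 CPM.

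In ovary 189 members passed the filter on low counts. For 20E against EtOH, edgeR called 0 members, where 0% of 11418 genes were called; 7 members (3.70%) had an unadjusted p under 0.05, against 2.40% of genes, and DESeq2 called 3 members (1.59%), against 0.333% of genes. For JHA against EtOH it called 0 members as well, where 0% of genes were called; 9 members (4.76%) had an unadjusted p under 0.05, against 3.51% of genes, and DESeq2 called 0 members, against 0.0614% of genes. The 178 tested lower genes had a median log2 fold change of -0.34 for JHA, with 153 of them below 0, against a median of 0.02 over all genes. These 153 fold changes share the same 6 libraries, and JHA-OV replicate 1 stood lowest of all ovary libraries, so the count is no measure of certainty. Without JHA-OV replicate 1 and 20E-OV replicate 3, which were left out after their values were seen, the median was -0.29 with 154 of 177 below 0.

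With those 2 ovary libraries left out, 20E against EtOH gave 14 called members of 188 (7.45%), where 3.24% of 11436 genes were called. Of the 14, 4 were higher (0.988% of genes) and 10 lower (2.25%). Among the 4 higher ones were HSALG023438.1 and HSALG023437.1, whose log2 fold changes were 3.00 and 2.85 (edgeR adjusted p = 0.0156 and 0.0222). HSALG023437.1, named after its values were seen, had 3.80 and 8.75 CPM in 20E replicates 1 and 2 and 32.1 CPM in the omitted replicate 3, against 0.610, 1.07 and 0.866 CPM in the EtOH ovaries. Leaving out 1 ovary library at a time gave 0 called members throughout. The difference of a hormone's effect between ovary and fat body passed for 0 members, for 20E where 0.208% of genes passed and for JHA where 0.333% did; at an unadjusted p under 0.05 there were 11 members for 20E (5.58%, against 7.2% of genes) and 24 for JHA (12.2%, against 13.6%). DESeq2 called 1 member for 20E (0.510%, against 1.19% of genes) and 6 for JHA (4.11%, against 3.19%).

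The libraries of the other tissues that carry the pair's treatment and number were examined over the members at or above 1 CPM there. In EtOH-Fb replicate 3 the 108 such lower genes had a median deviation of -0.25 log2 units from the tissue median, and it was the lowest of the 9 for 29.6% of them, against 0.05 and 6.96% over the genes that reached 5 CPM in brain. In JHA-Fb replicate 1 the median was 0.08, against 0.11. In JHA-OV replicate 1 the 167 lower genes had a median of -0.34, and it was the lowest for 44.3% of them, against 0.12 and 25.0% over the genes that reached 5 CPM in brain. That library was also the highest of the 9 for 10.2% of the lower genes, against 39.5% of those genes. EtOH-OV replicate 3 stood at 0.13, against 0.00. Of the 4 libraries that share a treatment and number with the pair, 2 were thus low over these genes and 2 were not. A low median was not confined to such libraries. In 20E-OV replicate 2 it was -0.24, and that library was lowest for 25.1% of the lower genes, against 0.00 and 9.38%. In EtOH-Fb replicate 2 the median was -0.15, against -0.10.

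At the upper end stood 20E-OV replicate 3, with a median of 0.56 and the highest value for 51.5% of the lower genes, against 0.00 and 16.6%, and 20E-Fb replicate 3, with a median of 0.36. JHA-OV replicate 1 and 20E-OV replicate 3 differed from the other 7 ovary libraries in other measures too. Ovary-enriched genes took 8.53% and 10.1% of their gene counts, against 12.7 to 13.8%, and fat body-enriched genes took 2.53% and 2.45%, against 1.43 to 1.83%. Brain-enriched genes took 1.82% and 1.99%, against 1.34 to 1.57%. The part of these measures in the ovary values was not tested.

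**Figure D5:**
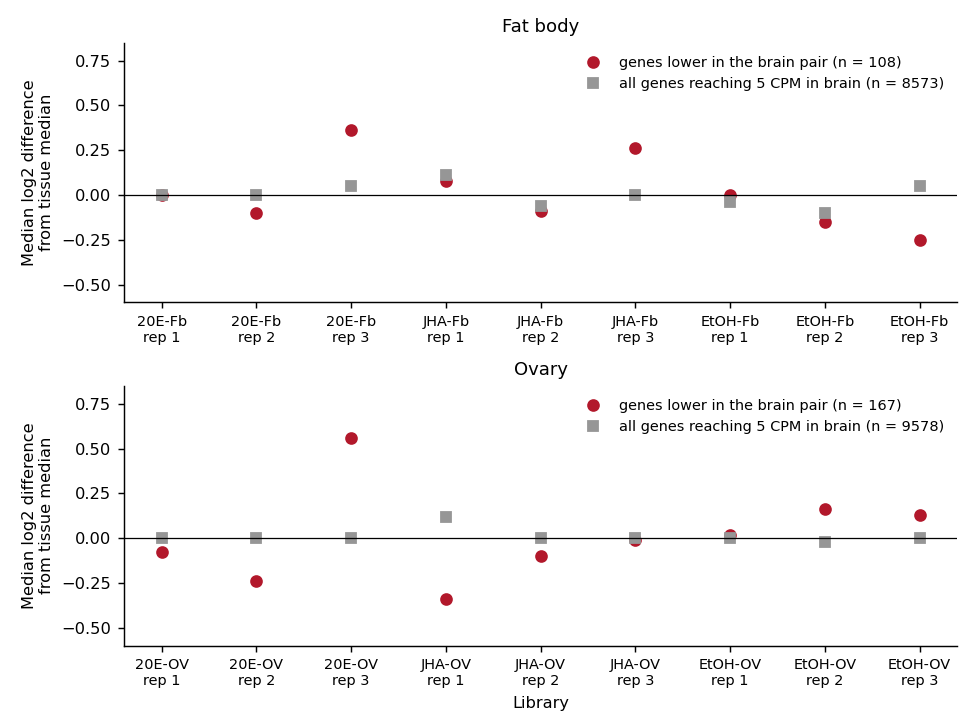
Median log2 difference of each fat body library (upper panel) and ovary library (lower panel) from the tissue's median, over lower genes at or above 1 CPM in that tissue (red circles) and over all such genes that reached 5 CPM in brain (gray squares). JHA-OV replicate 1 is the lowest ovary library for the lower genes, at -0.34, and 20E-OV replicate 3 the highest, at 0.56.

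Some lower genes carry consecutive identifier numbers: 69 of the 223 (30.9%) stand in 30 runs, and 0 of the 12 higher genes do. Of the 10490 genes 82.9% stand in such runs, a share that grows with the size of a set, so the share among the members is not set against it and the runs are given only as a description. The longest run holds 6 identifiers, HSALG029334.1 to HSALG029339.1, all brain-enriched, with a mean of 45.2 CPM in the pair and 122 CPM in the other 7 brains. HSALG029336.1, the strongest of them, had 175 and 151 CPM in the pair, against 311 to 562 CPM in the other 7, and averaged 1.45 CPM in fat body and 2.23 CPM in ovary. In another run, HSALG024730.1 to HSALG024732.1, the mean was 60.7 CPM in the pair and 216 CPM in the others. HSALG023437.1 and HSALG023438.1 form a run as well. Whether consecutive numbers are neighbours on the genome, copies of a gene or pieces of 1 gene is not given in the table, so members of a run may not be independent.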

How the data were processed

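The deposited table holds raw read counts per gene. Per the submitters' processing notes, the authors used HTSeq, Trimmomatic and STAR (2.5.3a); the sources used here give no genome build, annotation or strand setting, so overlapping and antisense genes may share reads. The 5 summary lines of HTSeq entered neither library sizes nor tests. Members and gene lists were chosen with earlier results of these data known. Named genes are those with the largest ratio or highest brain level in each direction and, per hormone comparison in fat body and ovary, up to 2 risers and 2 fallers with the smallest adjusted p, or the smallest p where none passed.

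Tests were run in R 4.3.3 with edgeR 4.0.16 (TMM, filterByExpr, robust glmQLFit and glmQLFTest), over the 9 libraries of a tissue for hormones, over 18 fat body and ovary libraries for differences between them, and over 25 libraries (without the pair) for brain, with treatment as covariate. Adjusted p-values are Benjamini-Hochberg over all genes tested, called under 0.05. Fold changes of the fits use TMM library sizes; CPM values use total gene counts. TMM lowers the median difference of brain from fat body over the 10490 genes to 0.18 log2 units, against 1.83 on CPM. DESeq2 1.42.0 was an alternative. The code was tested on simulated counts. No replicate pair agreed within sampling noise (lowest chi-square per degree of freedom 7.94). Tissues of an ant were treated as independent.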

Additional observations from a re-analysis of the deposited data

How the results depend on the processing

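Genes named for their ratio, their brain level or their smallest p in fat body or ovary were followed through the alternatives, and none changed sign. Genes named for other reasons were not all followed. For the log2 mean ratios the rule had set the sign, because both values of the pair lay beyond the other 7. Their unchanged sign is thus no support. The position of the lower genes relative to all genes between ovary and fat body changed direction with the scaling (0.31 against 0.14 on TMM sizes, 1.26 against 1.53 on CPM). A ratio of 2 in place of 1.5 left 10 lower and 0 higher genes; TMM library sizes gave 278 and 10, a minimum of 10 CPM 212 and 10, and adding 0.1 CPM 246 and 14. Brain-enriched genes made up 90.0% of the 10 and 58.3 to 62.7% under those 3 settings. The share of the 223 that is brain-enriched was 45.7% at 8-fold (10.5% of all 10490) and 78.5% at 2-fold (26.2%). It was 49.8% on TMM sizes (13.3%) and 57% with all 9 brain libraries in the brain mean (15.8%). Leaving out 1 brain library gave 227 to 505 lower and 12 to 115 higher genes, with the upper ends when 1 library of the pair was the one left out. Members called for brain 20E were 8 with DESeq2 (3.4%, against 4.52% of genes with an adjusted p). They were 2 without the pair and 0 with the replicate number as a block, against 1 in the main fit, and 0 to 3 with 1 library left out. For fat body 20E they were 8 with DESeq2, against 0, and 0 to 1 with 1 library left out. For fat body JHA they were 14 with DESeq2 (10.3% of members with an adjusted p, against 6.46% of genes). They were 2 with the replicate block, against 5 in the main fit, and 0 to 7 with 1 left out. For ovary 20E they were 3 with DESeq2 and, chosen after seeing the data, 14 without JHA-OV replicate 1 and 20E-OV replicate 3, against 0, and 0 to 0 with 1 left out; brain JHA and ovary JHA gave 0 to 0. For the difference between ovary and fat body DESeq2 called 1 (20E) and 6 (JHA) members and the replicate block 1 (JHA), against 0. Where a count moved, the cause was not tested. With 1 library left out, members called higher and lower were 191 to 195 and 12 to 15 in brain against fat body, 195 to 201 and 15 to 18 in brain against ovary, and 89 to 99 and 55 to 65 in ovary against fat body. Equal replicate numbers were not taken as pairs: within a tissue, deviations of equally numbered libraries correlated at -0.51 to 0.26, and between tissues, at equal treatment and number, at 0.05 to 0.28, all above 0 but not all over 0.1. With 3 libraries a group, the fits per tissue have little power for small changes, and low counts limit 33 of the lower genes.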
